A study of Homo sapiens with 16 samples.

Results

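The genes described here are 10 histone chaperones and histone mRNA factors, CHAF1A, CHAF1B, ASF1A, ASF1B, NASP, SLBP, NPAT, CASP8AP2, HJURP and DAXX. They were chosen by symbol for their known roles in nucleosome assembly and histone mRNA production, with earlier results of these data known. All 10 were found among the 12676 genes of the deposited RNA-seq table. The cells were H1299, established from a human non-small cell lung carcinoma, and the question was which transcripts depend on YEATS2, a subunit of the ATAC histone acetyltransferase complex. Cells of both groups were infected with virus carrying a pLKO shRNA construct, with polybrene at 8 µg per ml for 48 h. They were then selected with puromycin at 2 µg per ml, for 4 to 7 days according to the labels. The methods of the study give a shorter selection. The control group (shCtrl) received a non-targeting shRNA and the knockdown group (shYEATS2) an shRNA against YEATS2, which the study names as shY2-1 and the labels leave unnamed, with 2 libraries per group. The knockdown in these libraries therefore rests on a single shRNA in a selected pool of 1 cell line. The study also reported RNA-seq with an independent shRNA of partial effect, which lowered a partly overlapping set of genes. The labels show no separate libraries for that shRNA. The study calls its duplicates biological replicates, but the labels do not say that they came from separate cultures, and p-values measure only the spread between these libraries.

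During DNA replication, newly made histones H3 and H4 are handed by chaperones from the cytoplasm to the replication fork, where CAF-1 places them on new DNA. The histones themselves come mostly from replication-dependent genes, whose mRNAs end in a stem-loop rather than a poly(A) tail and are made mainly in S phase. Other chaperones place histone variants outside replication, among them CENP-A at centromeres and H3.3 in heterochromatin. Proliferating tumour cells carry out all of these steps in each division.

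Libraries held 34718921 to 39417787 reads over the listed genes, replicates varied with a biological coefficient of variation of 0.107, and log2 fold changes had a median standard error of 0.123. YEATS2 had 4482 and 4104 scaled reads in the shCtrl libraries and 665 and 673 in the shYEATS2 libraries, 15.6% of the control mean. Scaled reads are raw read counts corrected by the TMM method of edgeR and brought to the mean library size. Changes are log2 fold changes (shYEATS2 against shCtrl) on this scale from edgeR's quasi-likelihood test over all 12676 genes, and a gene was called at a Benjamini-Hochberg false discovery rate (FDR) under 0.01, the threshold of the study. Summed markers of carcinoma lines (4 of 5 analysed, KRT8, KRT18, VIM and AXL) were at 194788 and 198361 scaled reads in shCtrl and 141862 and 108412 in shYEATS2. Among them AXL was called lower (-1.97 on the log2 scale), while KRT18 (-0.81), VIM (-0.37) and KRT8 (0.31) did not pass the test. Of 6 immune markers only ITGAM was analysed, at 231 and 136 scaled reads in shCtrl and 426 and 507 in shYEATS2. ITGAM was called higher (1.35 on the log2 scale, edgeR quasi-likelihood FDR = 0.00613). None of 5 endothelial markers was analysed here.

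Of the 10 members, 7 fell in YEATS2 KD cells, 0 rose and 3 were not called (quasi-likelihood test of edgeR, Benjamini-Hochberg adjusted), while 12.5% of all genes tested were called lower and 12.9% higher. The 7 were both CAF-1 subunits, ASF1B, NASP, SLBP, HJURP and DAXX, and they retained between 40.4% and 71.4% of the control mean. ASF1A, NPAT and CASP8AP2 did not pass the threshold. The list was chosen with earlier results of these data known, so its counts beside all genes describe it and test nothing. The median log2 fold change of the 10 members was -0.68, beside -0.0019 over all genes tested. In 9 of the 10 members both shYEATS2 libraries lay below both shCtrl libraries, as they did in 39.8% of all genes, and NPAT was the exception. With exactTest of edgeR, the test named by the study, 8 members were called lower beside 19.7% of all genes, the eighth being CASP8AP2. Without shCtrl replicate 1, 4 members remained called lower (CHAF1B, ASF1B, NASP and HJURP), beside 6.71% of all genes.

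**Figure D1:**
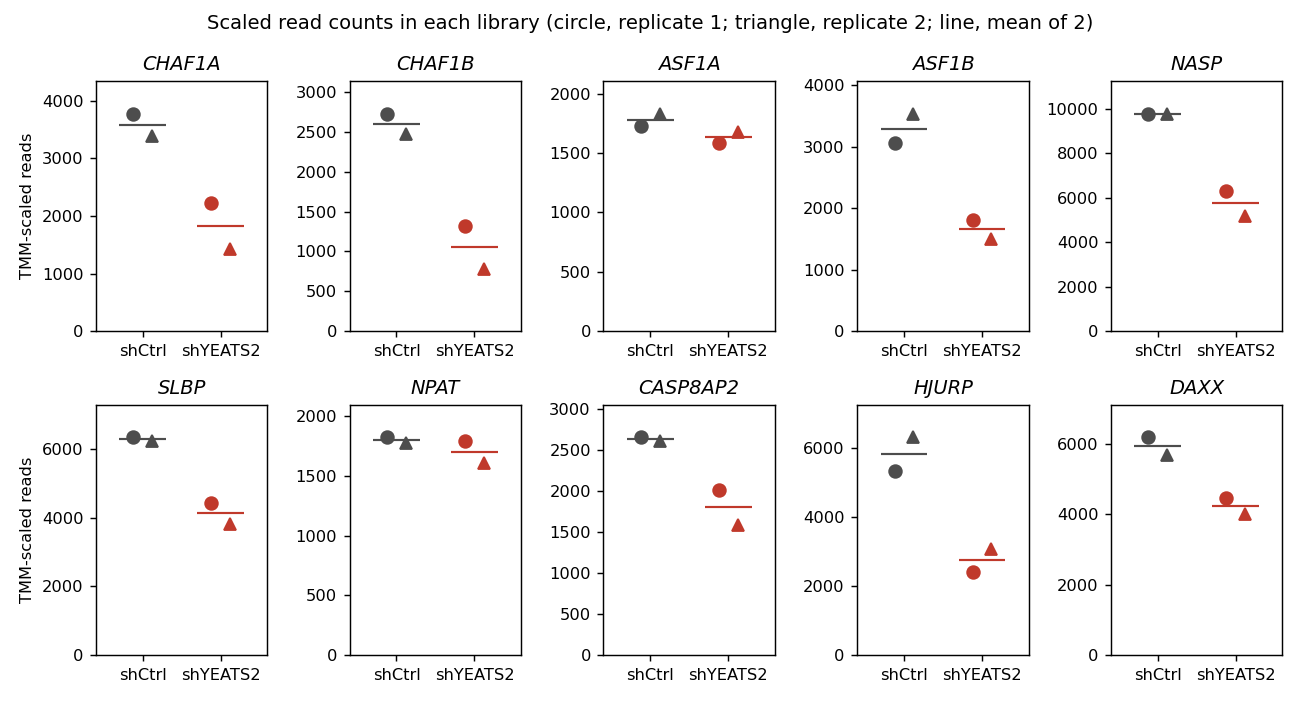
Scaled read counts (TMM-scaled reads, linear axes from 0) of each member in the 2 shCtrl (grey) and 2 shYEATS2 (red) libraries, with replicate 1 as a circle, replicate 2 as a triangle and the mean of 2 as a line. The groups lie apart in every panel except NPAT, and the smallest separation among the other 9 is that of ASF1A, at 1730 and 1831 against 1587 and 1681 scaled reads.

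Promoter sequences of the 4 members with the smallest FDR are shown because the words searched here are associated with cell cycle genes. Each runs 5′ to 3′ on the strand of the gene from 250 bases before to 50 bases after the start annotated by RefSeq (GRCh38.p14), and each was located by an exact match, found once, in GRCh37. The words were TTTCCCGC, TTTCGCGC, TTTGCCGC and TTTGGCGC for E2F factors, TTTGAA and TTCGAA for the cell cycle homology region (CHR) and CCAAT, the letters bound by NF-Y, on both strands. Capitals mark every match, so that ATTGG is CCAAT read on the other strand. Positions count from the start to the first base of a match.

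ASF1B, chr19:14247352-14247651, minus strand, with CHR at -27 and CCAAT at -219, -140 and -53.
ASF1B: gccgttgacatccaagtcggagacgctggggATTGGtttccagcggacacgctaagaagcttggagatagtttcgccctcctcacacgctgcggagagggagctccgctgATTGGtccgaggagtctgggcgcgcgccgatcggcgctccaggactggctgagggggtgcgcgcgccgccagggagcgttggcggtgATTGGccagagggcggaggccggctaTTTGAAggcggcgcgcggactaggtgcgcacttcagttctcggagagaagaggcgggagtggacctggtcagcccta

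HJURP, chr2:234763132-234763431, minus strand, with CHR at -111 and CCAAT at -169, -139, -101 and -72.
HJURP: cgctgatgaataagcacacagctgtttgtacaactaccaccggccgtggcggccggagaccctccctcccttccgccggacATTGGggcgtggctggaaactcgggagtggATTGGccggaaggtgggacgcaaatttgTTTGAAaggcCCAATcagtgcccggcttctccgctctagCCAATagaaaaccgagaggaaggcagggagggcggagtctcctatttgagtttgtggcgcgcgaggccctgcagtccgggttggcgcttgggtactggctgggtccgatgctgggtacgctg

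NASP, chr1:46049463-46049762, plus strand, with CCAAT at -203.
NASP: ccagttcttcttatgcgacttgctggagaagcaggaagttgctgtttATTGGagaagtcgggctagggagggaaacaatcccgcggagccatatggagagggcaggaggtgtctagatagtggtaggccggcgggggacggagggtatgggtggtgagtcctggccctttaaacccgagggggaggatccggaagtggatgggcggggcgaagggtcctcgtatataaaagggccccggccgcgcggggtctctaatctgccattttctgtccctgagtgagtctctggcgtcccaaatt

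CHAF1B, chr21:37757440-37757739, plus strand, with no match to any of the words.
CHAF1B: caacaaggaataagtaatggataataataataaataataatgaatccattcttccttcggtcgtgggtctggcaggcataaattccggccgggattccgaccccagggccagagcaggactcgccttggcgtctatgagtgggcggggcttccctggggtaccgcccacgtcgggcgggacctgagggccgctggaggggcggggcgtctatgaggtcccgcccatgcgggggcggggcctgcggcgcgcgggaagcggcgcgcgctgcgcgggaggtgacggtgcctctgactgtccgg

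The searched words thus differed among the 4 members that fell with the smallest FDR. ASF1B and HJURP held CHR and several CCAAT words, NASP held CCAAT once and CHAF1B held none. Over the 9 members with a promoter sequence, CCAAT was present in 7, CHR in 2 and an E2F word in 1, CASP8AP2, at -149. Among 35116 RefSeq promoters of the same length, 34.6% held CCAAT, 16.4% CHR and 3.31% an E2F word. These promoters were not restricted to the genes tested here, whereas all members were among those genes. In the members, matches to different motifs did not overlap. Among the members that were not called, ASF1A held CCAAT at 16, after the start, NPAT held it at -245 and -47, and CASP8AP2 at -65 and -15. A match describes these letters in this window and is not a measured binding site. Only exact words were sought, so a promoter without a match may still hold a similar sequence.

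**Figure D2:**
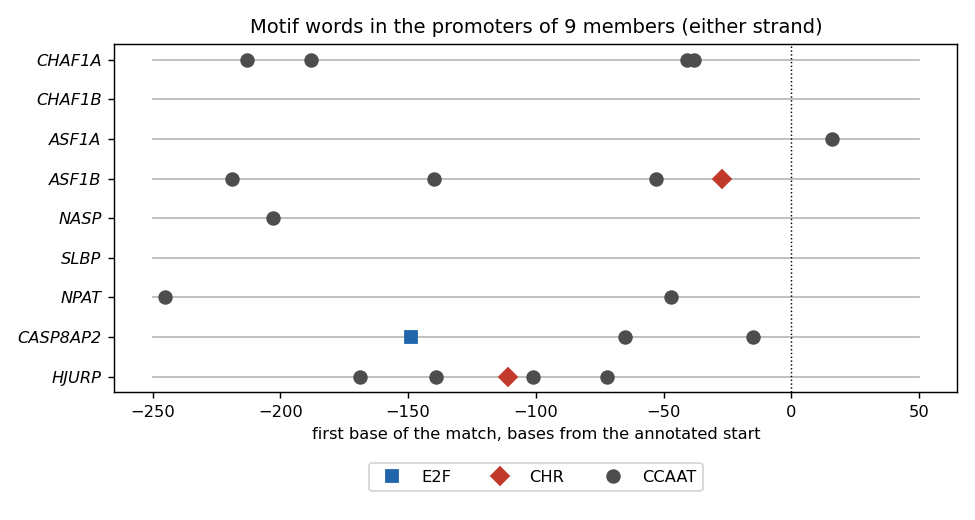
Positions of E2F (square), CHR (diamond) and CCAAT (circle) words on either strand in the promoters of 9 members, in bases from the annotated start (dotted line). The 2 CHR matches are in ASF1B at -27 and HJURP at -111, and the CHAF1B and SLBP lines hold no match.

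Transcripts of both dedicated subunits of CAF-1, the chaperone that deposits H3 and H4 behind the replication fork, fell in YEATS2 KD cells. CHAF1A, the large subunit (chromosome 19, 4402637 to 4445015, GRCh37, plus strand), had 3773 and 3394 scaled reads in shCtrl and 2223 and 1419 in shYEATS2. Both knockdown libraries were lower, and they differed more from each other than the controls did. The means were 3584 ± 268 and 1821 ± 568 (SD, n = 2), a log2 fold change of -0.98 (SE 0.20, 95% interval -1.46 to -0.50, edgeR quasi-likelihood FDR = 0.00861). CHAF1B, the subunit that contacts ASF1 (chromosome 21, 37757690 to 37791313, plus strand), had 2727 and 2470 scaled reads in shCtrl and 1318 and 782 in shYEATS2. It fell most of the 10 members, to 40.4% of the control mean, with replicate 2 of the knockdown again the lowest library. Its means were 2598 ± 181 and 1050 ± 378 (SD, n = 2), and it fell by 1.31 on the log2 scale (SE 0.23, 95% interval -1.85 to -0.77, edgeR quasi-likelihood FDR = 0.0047). The CHAF1A call was lost without shCtrl replicate 1 (log2 fold change -0.90, quasi-likelihood FDR = 0.0153) and with total-count scaling (-0.86, FDR = 0.0114 in edgeR). Per kilobase of exon, CHAF1A stood at 1.63 and 1.62 times the level of CHAF1B in shCtrl and at 1.99 and 2.14 times in shYEATS2. The ratio was higher in both knockdown libraries, by 0.34 on the log2 scale, with p = 0.333 in a two-sided exact permutation test, the smallest p that 2 against 2 libraries allow. RBBP4, the histone-binding subunit that CAF-1 shares with other complexes, was at a log2 fold change of -0.24 (edgeR quasi-likelihood FDR = 0.107).

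Of the paralogs ASF1A and ASF1B, which hold an H3-H4 dimer and pass it to CAF-1 or to the HIRA complex, ASF1B fell and ASF1A did not pass the test. ASF1B, the paralog linked to proliferation (chromosome 19, 14230324 to 14247425, minus strand), had 3057 and 3541 scaled reads in shCtrl and 1812 and 1505 in shYEATS2. Every knockdown library was below every control library by more than the controls differed. Means of 3299 ± 342 and 1658 ± 217 (SD, n = 2) gave a log2 fold change of -0.99 (SE 0.13, 95% interval -1.30 to -0.68, edgeR quasi-likelihood FDR = 0.00202), the smallest FDR of the members. ASF1A, the paralog present also outside the cell cycle (chromosome 6, 119215316 to 119230336, plus strand), had 1730 and 1831 scaled reads in shCtrl and 1587 and 1681 in shYEATS2. The knockdown libraries were lower without overlap, by an amount near the difference between replicates. Its means were 1781 ± 71.4 and 1634 ± 66.4 (SD, n = 2), with a log2 fold change of -0.12 (SE 0.10, 95% interval -0.35 to 0.10, edgeR quasi-likelihood FDR = 0.311). Of the exon bases of ASF1A, 7.92% overlap MCM9 on the other strand, where reads of an unstranded library may be lost or shared. Per kilobase of exon, ASF1B was at 2.34 and 2.56 times the level of ASF1A in shCtrl and at 1.51 and 1.18 times in shYEATS2. This ratio was lower in both knockdown libraries, by 0.87 on the log2 scale (p = 0.333, two-sided exact permutation test, the smallest possible). The 95% intervals of the log2 fold changes of ASF1B and ASF1A did not overlap.

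NASP, which binds and protects the soluble pool of H3 and H4 upstream of ASF1 (chromosome 1, 46049518 to 46084576, plus strand), had 9785 and 9749 scaled reads in shCtrl and 6315 and 5201 in shYEATS2. The controls were nearly equal and both knockdown libraries lay well below them. From 9767 ± 25.2 to 5758 ± 788 (SD, n = 2), NASP fell by 0.76 on the log2 scale (SE 0.12, 95% interval -1.04 to -0.48, edgeR quasi-likelihood FDR = 0.00327). It was the member with the most reads in all 4 libraries before correction for length.

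Of the factors that make and process histone mRNA, SLBP fell, NPAT did not pass the test and CASP8AP2 lay just outside the threshold. SLBP, the stem-loop binding protein that accompanies histone mRNA from processing to translation (chromosome 4, 1694458 to 1714071, minus strand), had 6348 and 6255 scaled reads in shCtrl and 4444 and 3833 in shYEATS2. The control libraries were close together and both knockdown libraries were lower. The means of 6302 ± 65.9 and 4138 ± 432 (SD, n = 2) corresponded to -0.61 on the log2 scale (SE 0.11, 95% interval -0.86 to -0.36, edgeR quasi-likelihood FDR = 0.00481). Its call was lost without shCtrl replicate 1 (quasi-likelihood FDR = 0.0212), without shCtrl replicate 2 (FDR = 0.0181 in edgeR) and without shYEATS2 replicate 2 (FDR = 0.0106 in edgeR), with log2 fold changes from -0.62 to -0.50.

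NPAT, the coactivator of histone gene transcription that cyclin E and CDK2 phosphorylate (chromosome 11, 108027942 to 108093365, minus strand), had 1824 and 1780 scaled reads in shCtrl and 1797 and 1606 in shYEATS2. One knockdown library lay between the controls and the other below them, so the groups overlapped. Its log2 fold change was -0.08 (means 1802 ± 30.8 and 1702 ± 135, SD, n = 2, SE 0.10, 95% interval -0.32 to 0.16, edgeR quasi-likelihood FDR = 0.518), and the sign turned with total-count scaling (0.04). CASP8AP2, also called FLASH, which joins the U7 snRNP in cutting the histone mRNA 3′ end (chromosome 6, 90539613 to 90584155, plus strand), had 2659 and 2610 scaled reads in shCtrl and 2017 and 1591 in shYEATS2. Its knockdown libraries were both below the controls and further apart than the controls were. The means were 2634 ± 34.4 and 1804 ± 302 (SD, n = 2) and the log2 fold change -0.55 (SE 0.13, 95% interval -0.85 to -0.24), with an FDR of 0.0138 in edgeR's quasi-likelihood test. The same gene was called by exactTest of edgeR (FDR = 0.000839), by DESeq2 (adjusted p = 0.00142), with a replicate block in edgeR (FDR = 0.00217) and without shYEATS2 replicate 1 (log2 fold change -0.73, edgeR FDR = 0.00219). Per kilobase of exon, SLBP was at 13.9 and 14.0 times the level of NPAT in shCtrl and at 9.88 and 9.54 times in shYEATS2.

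The chaperones of histone variants, HJURP and DAXX, both fell. HJURP, which loads the centromeric H3 variant CENP-A after mitosis (chromosome 2, 234742062 to 234763212, minus strand), had 5321 and 6309 scaled reads in shCtrl and 2413 and 3076 in shYEATS2. In both groups replicate 2 was the higher library, and the groups lay far apart. HJURP fell to 47.2% of the control mean, from 5815 ± 699 to 2745 ± 469 (SD, n = 2), with a log2 fold change of -1.08 (SE 0.15, 95% interval -1.43 to -0.73, edgeR quasi-likelihood FDR = 0.0023). CENPA, the gene of its cargo, had 1690 and 1912 scaled reads in shCtrl and 534 and 596 in shYEATS2, a log2 fold change of -1.67 (edgeR quasi-likelihood FDR = 0.000793). Per kilobase of exon, HJURP was at 1.61 and 1.68 times the level of CENPA in shCtrl and at 2.31 and 2.63 times in shYEATS2, a log2 shift of 0.58 (p = 0.333, two-sided exact permutation test, the smallest possible).

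DAXX, which with ATRX deposits H3.3 in heterochromatin and at telomeres (chromosome 6, 33286335 to 33290793, minus strand), had 6192 and 5691 scaled reads in shCtrl and 4477 and 4013 in shYEATS2. Both knockdown libraries were lower, and each pair of replicates differed by a similar amount. DAXX fell least of the members called, to 71.4% of the control mean (5942 ± 354 and 4245 ± 328, SD, n = 2), with a log2 fold change of -0.49 (SE 0.10, 95% interval -0.73 to -0.24, edgeR quasi-likelihood FDR = 0.00961). This FDR was close to the threshold and exceeded it under total-count scaling (0.0215 in edgeR), without shCtrl replicate 1 (0.0672 in edgeR), without shCtrl replicate 2 (0.0269 in edgeR) and without shYEATS2 replicate 2 (0.0272 in edgeR), with log2 fold changes from -0.54 to -0.37. Of its exon bases, 14.3% overlap another annotated gene on the same strand. ATRX, its partner, had 2981 and 2866 scaled reads in shCtrl and 3075 and 2753 in shYEATS2 (log2 fold change -0.01, 95% interval -0.25 to 0.24, edgeR quasi-likelihood FDR = 0.971).

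**Figure D3:**
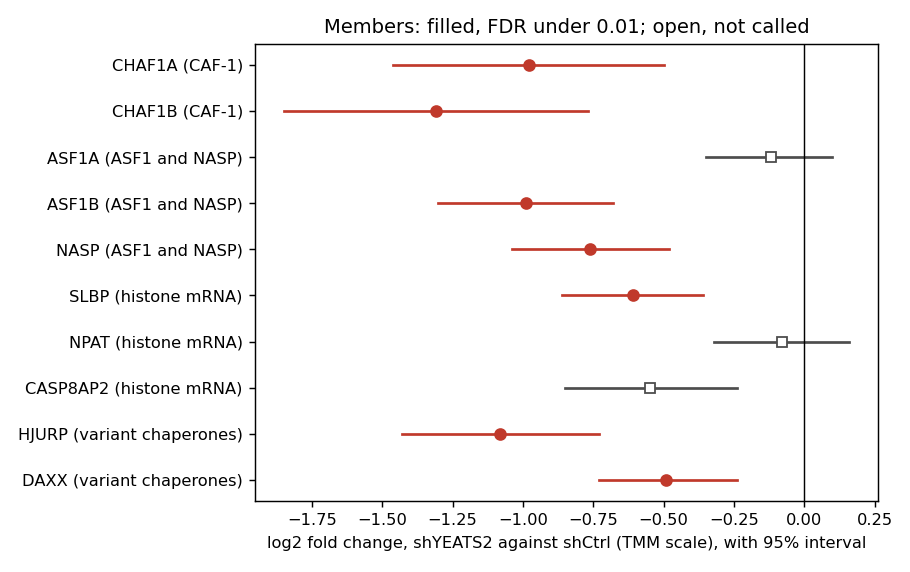
Log2 fold changes (shYEATS2 against shCtrl, TMM scale) of the 10 members with their 95% intervals, grouped by role. Filled red circles are the 7 members with an FDR under 0.01, and open squares are ASF1A, NPAT and CASP8AP2. The intervals of ASF1A (-0.35 to 0.10) and NPAT (-0.32 to 0.16) cross 0, whereas that of CASP8AP2 (-0.85 to -0.24) does not.

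Levels of the members are compared here in scaled reads per kilobase of exon, counting the merged exons of all annotated transcripts of a gene. Such a length can exceed that of the transcripts in these cells. The order of genes and the ratios between genes above therefore depend on the annotation, whereas changes between groups do not. In shCtrl, SLBP had the highest level (3340 ± 35.0, SD, n = 2), followed by DAXX (1930 ± 115), ASF1B (1680 ± 175), HJURP (1520 ± 183), NASP (1180 ± 3.03), CHAF1A (828 ± 62.0), ASF1A (688 ± 27.6), CHAF1B (509 ± 35.5), CASP8AP2 (323 ± 4.22) and NPAT (239 ± 4.09). Only the neighbours ASF1B and HJURP overlapped between libraries. In shYEATS2, SLBP (2200 ± 230) and DAXX (1380 ± 106) still led, and ASF1B (847 ± 111), HJURP (718 ± 123), NASP (693 ± 94.8) and ASF1A (631 ± 25.6) formed a run in which each overlapped the next. CHAF1A followed at 421 ± 131, and NPAT (226 ± 17.9), CASP8AP2 (221 ± 37.0) and CHAF1B (206 ± 74.1) could not be placed in order beyond their spread. ASF1A thus lay below CHAF1A in both shCtrl libraries and above it in both shYEATS2 libraries.

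The 2 shYEATS2 libraries differed from each other in several members. On the log2 scale, replicate 2 stood below replicate 1 by -0.65 for CHAF1A and -0.75 for CHAF1B, and by -0.34 for CASP8AP2, -0.28 for NASP, -0.27 for ASF1B and -0.21 for SLBP. NPAT and DAXX were both at -0.16, ASF1A at 0.08 and HJURP at 0.35. CAF-1 was thus lowest in replicate 2 and HJURP lowest in replicate 1. Genes of S phase differed between these libraries in the direction of CAF-1, with 15 of 15 lower in replicate 2 and a median of -0.72. Over all 12676 genes, 6419 were lower in replicate 2. Genes of G2 and M phase had a median of -0.01, with 7 lower and 5 higher. Between the shCtrl libraries the medians were -0.02 for the members, -0.09 for the S-phase genes and 0.14 for the G2 and M-phase genes. There, 11 of 15 S-phase genes and 0 of 12 G2 and M-phase genes were lower in replicate 2.

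**Figure D4:**
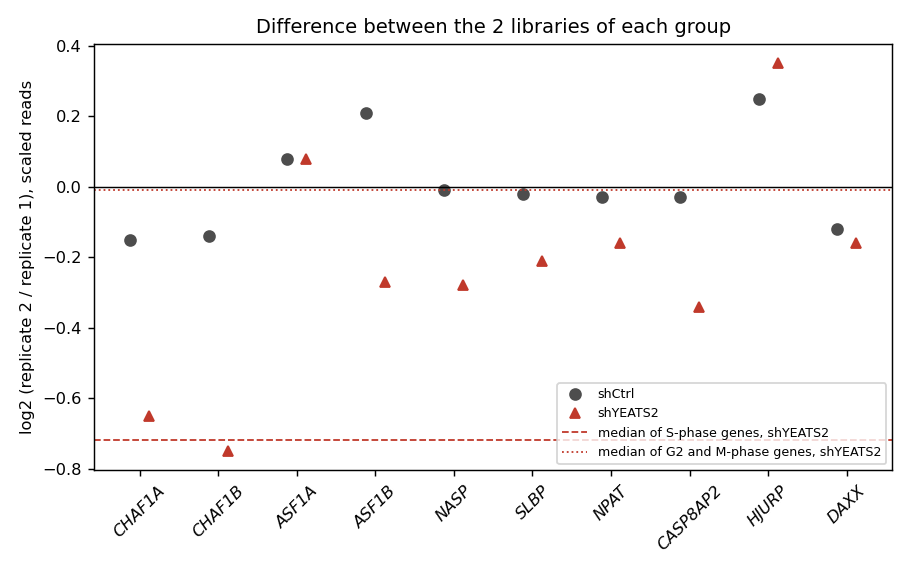
Log2 ratio of replicate 2 to replicate 1 (scaled reads) for each member in shCtrl (grey circles) and shYEATS2 (red triangles), with the shYEATS2 medians of the S-phase genes (dashed, -0.72) and the G2 and M-phase genes (dotted, -0.01). CHAF1A and CHAF1B in shYEATS2 lie near the dashed line at -0.65 and -0.75, and HJURP lies above 0 in both groups.

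The same 2 lists were lower in the knockdown as a whole, where 12.5% of all genes were called lower and 12.9% higher. Of 15 S-phase genes 12 were called lower and 0 higher (median log2 fold change -1.25, edgeR's quasi-likelihood test), and their summed scaled reads were 165691 and 156347 in shCtrl and 80399 and 50420 in shYEATS2. Examples are RRM2 (-1.74) and TYMS (-1.67), enzymes of nucleotide supply, and PCNA (-1.59), the polymerase clamp to which CAF-1 binds. Of 12 G2 and M-phase genes all 12 were called lower (median -1.34), among them CDC20 (-1.62), BUB1 (-1.47) and TOP2A (-1.43), and the sums were 133908 and 148726 against 55244 and 54700. Among the members, CHAF1B (-1.31) had a log2 fold change near these medians, and 5 members lay above every gene of both lists, whose highest was E2F1 (-0.62). They were SLBP (-0.61), CASP8AP2 (-0.55), DAXX (-0.49), ASF1A (-0.12) and NPAT (-0.08), and SLBP and DAXX were among those called lower. The study reported from flow cytometry that knockdown of YEATS2 led to G1 arrest. The part of cell cycle state in the members' falls was not tested. In bulk RNA, fewer cells in a phase and less RNA per cell cannot be told apart.

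Other histone chaperones and their partners followed a mixed course. Of 32 such genes, 16 were called lower, 3 higher and 13 neither way (edgeR's quasi-likelihood test), with a median log2 fold change of -0.41. Over all genes tested, 12.5% were called lower and 12.9% higher. With either shCtrl library left out, fewer genes were called both in this list and over all genes. Among those that fell were CENPA (-1.67), whose FDR was the lowest of the list, and OIP5 (-1.03, FDR = 0.00179 in edgeR), which acts at centromeres before HJURP loads CENP-A. The 3 that rose with all 4 libraries were SPTY2D1, an H3-H4 chaperone (0.79), UBN2, a subunit related to the HIRA complex (0.79), and CDAN1, which binds ASF1 (0.48). HIRA, the H3.3 chaperone that receives histones from ASF1A, was at 0.24 (edgeR quasi-likelihood FDR = 0.0800).

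Of 20 other histone mRNA factors, 8 were called lower, 0 higher and 12 neither way (edgeR's quasi-likelihood test), with a median of -0.27. Over all genes, 12.5% were called lower. Fewer were called lower, in this list and over all genes, with either shCtrl library left out. The 3 with the lowest FDR were ERI1, an exonuclease that trims the histone mRNA end with SLBP (-0.97, edgeR FDR = 0.00155), CCNE2, a cyclin E of the kinase that acts on NPAT (-1.74, edgeR FDR = 0.00187), and SRRT, also called ARS2, an RNA processing factor (-0.60, edgeR FDR = 0.00353). LSM11, the U7 snRNP protein that CASP8AP2 binds, fell by 0.62 on the log2 scale (edgeR quasi-likelihood FDR = 0.00675). RBBP4, ATRX, HIRA and LSM11 are named as partners of members and lay outside the naming rule, chosen after their values were seen. E2F1, named above as the highest of 2 lists, also lay outside it.

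Read counts of the replication-dependent histone genes went mostly the other way. The libraries were selected for poly(A), so these counts should come mainly from polyadenylated forms of such mRNAs. SLBP, CASP8AP2 and ERI1 act on the stem-loop forms. The 3′ ends of the transcripts were not measured. Of 15 such genes, 9 had over 100 reads in a library of each group, and of these 7 were called higher, 1 lower and 1 neither way (edgeR's quasi-likelihood test). Of all 11814 genes with such reads in each group, 1406 were called higher and 1526 lower. The other 6 passed 100 reads in the knockdown libraries alone and would not be listed for their control reads, so they are left out of this count. HIST1H2AC had 596 and 665 scaled reads in shCtrl and 4569 and 6147 in shYEATS2 (log2 fold change 3.09, SE 0.17, edgeR quasi-likelihood FDR = 0.000793). HIST1H2BD (2.81) and HIST1H1C (2.03) were also among the 5 called higher at this same FDR, whereas HIST1H2BH had 254 and 241 against 94.3 and 99.9 scaled reads (-1.35, edgeR quasi-likelihood FDR = 0.00204). Near-identical copies of histone genes share reads, so the division among them is uncertain.

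**Figure D5:**
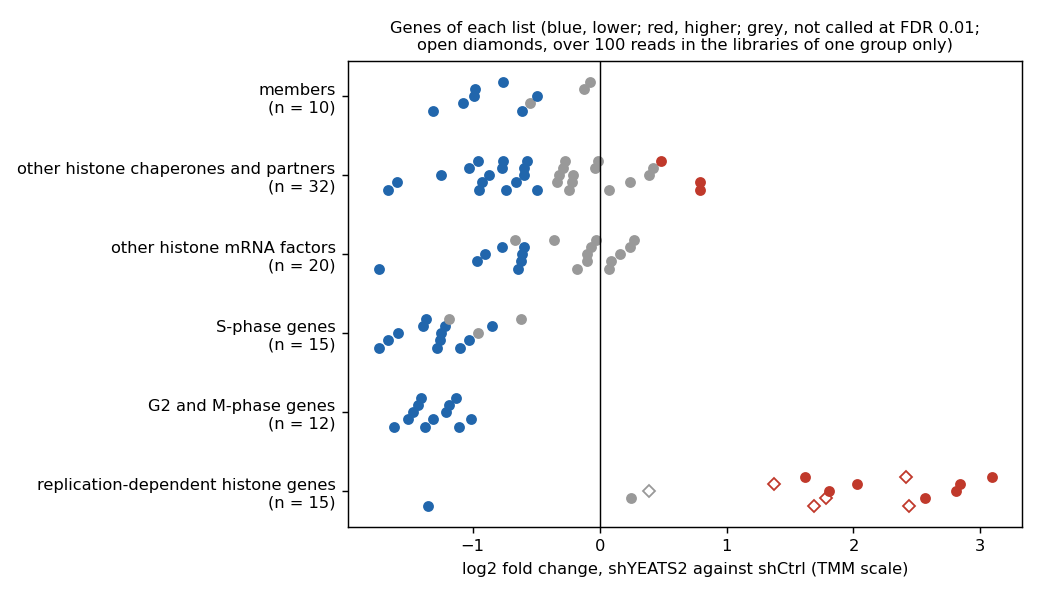
Log2 fold changes (shYEATS2 against shCtrl, TMM scale) of the 10 members and of the genes of 5 lists, 1 symbol per gene. Blue symbols were called lower, red symbols higher and grey symbols neither way at an FDR of 0.01, and open diamonds are genes with over 100 reads in the libraries of 1 group only. The members lie between -1.31 and -0.08, while the histone genes reach 3.09.

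For each member the gene with the most similar profile over the 4 libraries was sought among 12113 genes with a mean of at least 100 scaled reads, as the smallest Euclidean distance between centred log2 values. It was ESCO2 for CHAF1B (distance 0.0289), which joins sister chromatids in S phase, and GAR1 for SLBP (0.0199), a protein of H/ACA ribonucleoproteins. CASP8AP2 was nearest to TADA2B (0.00437), a subunit of the SAGA complex, and ASF1A to SETD1A (0.0179), a histone methyltransferase. The remaining pairs were CHAF1A with RP11-132A1.4 (0.0228), ASF1B with HECA (0.0333), NASP with MRPL50 (0.0171), NPAT with DNTTIP1 (0.00719) and DAXX with FAM122A (0.00888). HJURP had the most distant neighbour, C1QL4 (0.083). With 4 libraries, such a likeness describes these profiles and nothing beyond them.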

How the data were processed

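RNA-seq reads of 4 H1299 libraries (TruSeq mRNA v2 kit, poly(A) selected, not stranded) were aligned by the authors to hg19. The methods name the RNA-Seq unified mapper and HTSeq 0.6.1 with default settings, while the submitters' processing notes also list TopHat2 2.0.10. The authors deposited raw counts per gene, and the annotation is not given in the sources used here. Each of the 12676 listed genes has over 100 reads in at least 1 library, so a gene can be listed through 1 group. Deposited columns of log2 fold change, p-value and FDR hold the authors' own exactTest comparison and were not used. ChIP-seq samples were not used here.

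The counts of all 4 libraries were tested with edgeR 4.0.16 (R 4.3.3), with a filter of 10 reads in 2 or more libraries that all genes met, TMM scaling, glmQLFit and glmQLFTest without a block, and Benjamini-Hochberg adjustment over all genes. Alternatives were exactTest, DESeq2 1.42.0, limma-trend (limma 3.58.1, prior count 2), other scalings and filters, an FDR of 0.05, a replicate block and each library left out, where a lone library was assumed to vary like the other group. Ratios were compared by exact permutation. The procedure was tested on simulated data. Profile distances used log2 of scaled reads plus 1. Gene positions are from GENCODE v44lift37 (GRCh37), which held 12465 of 12676 identifiers (98.3%). Exon length is that of the merged exons of all transcripts annotated there for a gene. Named genes were YEATS2, all members, up to 3 genes per list and direction with the smallest FDR, and the nearest profile of each member. A result on 1 gene that this rule names is not reported here. Histone genes were symbols beginning with HIST. The members and lists were chosen with earlier results of these data known. Replicate numbers are shared between the groups, but nothing ties libraries of the same number together.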

Additional observations from a re-analysis of the deposited data

How the results depend on the processing

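Of 140 values of the members recomputed under 14 alternatives, 125 kept their direction and side of the threshold, 9 lost the call, 5 gained it and 1 changed sign, which was NPAT at 0.04 with total-count scaling. CHAF1B, ASF1B, NASP and HJURP kept their call under all 14. Among the 14, the fit without a filter repeats the main fit, because all genes met the filter. An FDR under 0.05 applies a looser threshold to the main fit, so no call could be lost there. The agreement of these alternatives was therefore fixed in advance and adds nothing to the tally. The number of genes called lower and higher (1581 and 1630) became 2497 and 2596 with exactTest, 3011 and 3093 at an FDR under 0.05, 2190 and 2159 with DESeq2, and 2715 and 2742 with the replicate block. Deviations of libraries with the same number correlated at 0.403 over all genes, but with 2 numbers and no label that ties their libraries this is a hint and not a pairing. The block changed no member's call except that of CASP8AP2. Total-count scaling gave 1166 lower and 2363 higher and shifted all genes, whose median log2 fold change was -0.0019 with TMM and 0.12 without. Leaving out 1 library at a time gave 850 to 2024 genes lower, 775 to 1971 higher and 4 to 8 members lower, with the lowest counts without shCtrl replicate 1. The cause of these changes was not tested. With 2 libraries per group, the log2 fold changes of the members carried standard errors of 0.10 to 0.23.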
